A study of Oryza sativa with 6 samples.

Results

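Dehydrins and other LEA (late embryogenesis abundant) proteins were followed in rice leaf blades through 6 genes: Dhn1, RAB21, RAB16B, RAB16C, RAB16D and LEA19. They were chosen by name, as genes of the array annotation whose symbol or synonym is Dhn, LEA, RAB16 or RAB21, with or without a number or letter. A seventh gene of that kind, LEA17, was not analysed here since the name table used pairs no probe set with it. The 6 genes are a small part of the 17905 genes measured, and 9 probe sets represent them. Where a gene had several probe sets, the one with the highest mean over the arrays was used.

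The data are 6 arrays of Oryza sativa leaf blade RNA, 3 from the Os-LBD37 overexpressor line RK16331-13 and 3 from an empty vector control line. Both lines are hygromycin resistant and were grown hydroponically, and the 5th and 6th leaf blades were taken at a date set by the emergence of leaf blade 8. Os-LBD37 encodes a LOB-domain transcription factor, and the question of the comparison is how leaf transcripts change in a line made to overexpress it. The overexpressor is 1 line, so what the transgene does and what else differs between the lines cannot be told apart, and the promoter that drives it is not given in the labels. The level of Os-LBD37 itself was not analysed here. The labels do not say that replicates are separate plants, so the spread behind each p-value may be technical. In leaf tissue measured as a whole, fewer cells of a type and less RNA per cell cannot be told apart.

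LEA proteins are hydrophilic, largely unfolded proteins that accumulate as seeds dry and, in leaves, when water is short, in salt or in cold. Dehydrins, the group to which Dhn1 and the RAB16 proteins belong, carry lysine-rich repeats that bind to membranes and protect proteins. RAB stands for responsive to abscisic acid, the hormone of water deficit, and RAB21, also called rab16A, is a classical abscisic acid response gene of rice. LEA19, also known as OsLEA3-1, encodes a LEA protein of another group that is induced by drought and salt.

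All values are probe set intensities on a linear scale as deposited, and each array had the same trimmed mean of 500.1. Background was the 95th percentile of 127 probe sets that serve as controls and match no rice transcript, and lay between 47.5 and 70.9. A level of 1 probe set cannot be set against that of another, so genes are compared between arrays only. Of the 7 leaf blade markers, 6 were above background on all arrays, and 0 passed by limma, with 6 of 7 fitted changes below 0 and a median of -0.28. Their summed level was 97091 to 148240 in the empty vector line and 64954 to 135931 in the overexpressor, lowest on overexpressor replicate 3. PSAH, for a photosystem I subunit, was at 20828, 30947 and 23008 on the control arrays and at 15852, 12968 and 13451 on the overexpressor arrays, lower without overlap (fitted log2 change -0.81, adjusted p = 0.175). The share of all genes lower without overlap was not taken. Of 11 seed and embryo markers, 7 were above background on no array, and the summed level of the 11 was 2885 to 3673 in the empty vector line and 3136 to 3373 in the overexpressor. Of 6 root markers, 2 were above background on all arrays, and the summed level of the 6 was 2170 to 4523 in the empty vector line and 2427 to 12524 in the overexpressor. The highest sum was on overexpressor replicate 2, and most of it came from the silicon transporter gene Lsi6 at 9396, with Lsi1 at 3052. OsPT11, NRT2.3 and Lsi2 of the same list were below background on that array. NRT2.2 was above background on that array only, at 70.9, and was at 5.74 to 30.2 on the others. The list was drawn by name, and whether Lsi6 marks root in these samples was not tested. Replicate 2 of both lines stood apart in some genes of the circadian clock. CCA1, a gene of the morning, was at 5241 and 18627 on these arrays and at 602.1 to 682.1 on the other 4. OsPCL1, OsPRR73 and OsPRR95 also set these arrays apart, whereas GI, OsPRR1 and OsPRR37 did not. OsPRR1 on replicate 2 was the highest of the control arrays, at 4387, and the lowest of the overexpressor arrays, at 2267. Deviations from the line mean went together most for replicate number 2 (correlation 0.431). For number 3 this was less clear. Empty vector replicate 3 was at 0.28 with overexpressor replicate 3 and at 0.316 with overexpressor replicate 1. Differences within a replicate number are given as well, and their pairing rests on the numbers in the titles.

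Dhn1 was the 1 member whose lines did not overlap. Its intensity was 1685, 3655 and 1673 on empty vector replicates 1, 2 and 3, and 8073, 7832 and 5549 on the overexpressor arrays. All 3 overexpressor arrays lay above the highest control array, which was replicate 2. The mean was 2338 ± 1141 (SD, n = 3) in the control and 7151 ± 1393 (SD, n = 3) in the overexpressor, a ratio of 3.06. The fitted log2 change of log2(intensity + 16), overexpressor minus empty vector, was 1.69 ± 0.35 (SE over n = 3 arrays per line), and it did not pass the threshold of 0.05 over all genes (limma adjusted p = 0.0903). Within replicate numbers 1, 2 and 3 the differences were 2.25, 1.10 and 1.72, higher in the overexpressor in 3 of 3. Over all genes, 11.8 percent were higher in the overexpressor with no overlap of the lines, against 1 of 6 members.

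The call for Dhn1 differed between settings. Without replicate 2 of both lines its log2 change was 1.98 ± 0.22 and passed (limma adjusted p = 0.0414), where 1.33 percent of all genes passed. In that same setting the leaf blade marker rca, for Rubisco activase, was lower and passed (log2 change -1.62, adjusted p = 0.0437). It was at 20895, 41372 and 25345 on the control arrays and at 7120, 41036 and 7878 on the overexpressor arrays, and the part of the leaf markers in the Dhn1 result was not tested. With array weights it was 1.85 ± 0.29 and passed (adjusted p = 0.0321), where 2.26 percent of all genes passed. With the replicate number as a block it missed the threshold (adjusted p = 0.0522), and over all 20 alternative settings the adjusted p ran from 0.0321 to 0.58. The other 2 probe sets of Dhn1 were above background on no array, at 1.52 to 31.2, and add no level.

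**Figure D1:**
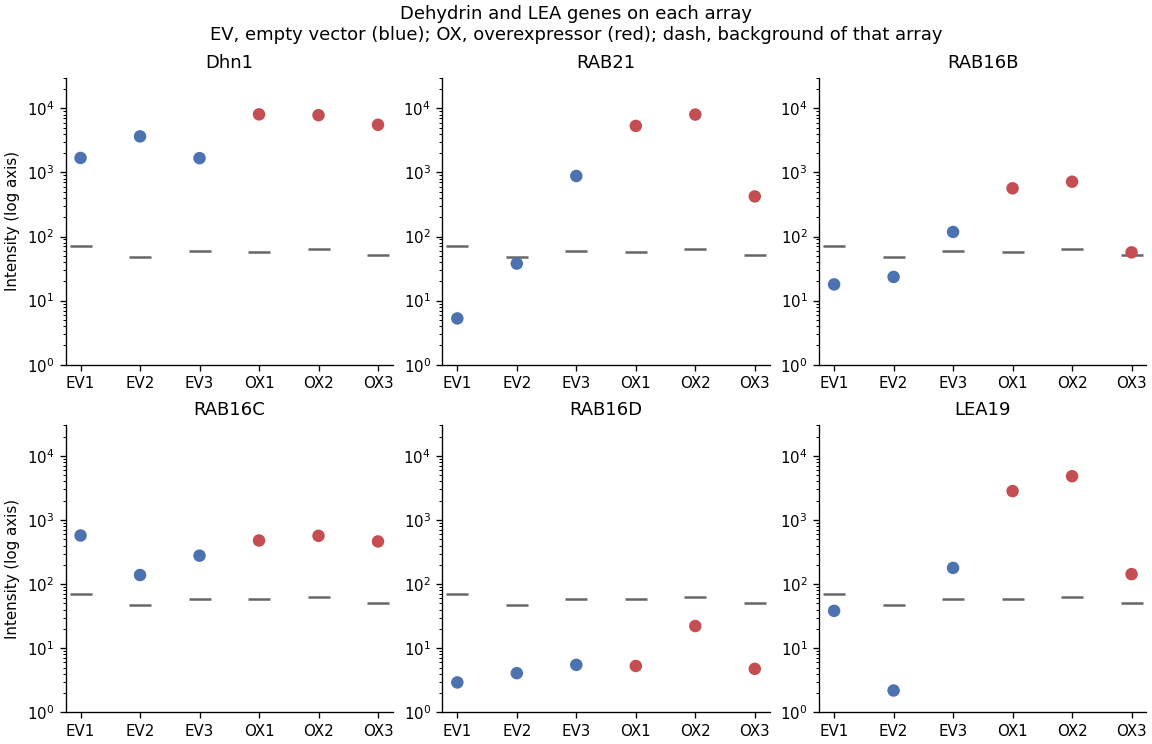
Intensity (log axis) of the 6 member genes on each array, with empty vector arrays (EV) in blue, overexpressor arrays (OX) in red, numbers for replicates and a dash for each array's background. Dhn1 separates the lines, whereas RAB21, RAB16B and LEA19 are high on overexpressor replicates 1 and 2 and low on replicate 3.

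RAB21 had the largest fitted change of the members and the least even one. Its intensity was 5.28, 37.9 and 881.1 on empty vector replicates 1, 2 and 3, and 5325, 8008 and 423 on the overexpressor arrays. Overexpressor replicate 3 lay below empty vector replicate 3, so the lines overlapped. On the control side only replicate 3 was above background, while all overexpressor arrays were. The log2 change was 4.72 ± 1.56 (SE over n = 3 arrays per line; limma adjusted p = 0.234) and did not pass, although only 5 of 17905 genes had a larger one. With values under background set to background it was 3.96. Of the 6 members, 5 were highest of their line on overexpressor replicate 2, RAB21 and LEA19 among them. The share of all genes highest there was not taken. That array had the highest root marker sum, most of it from Lsi6. The part of that sum in the member values was not tested.

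The second probe set of RAB21 showed the same order of arrays. It was at 46.4, 161.5 and 459.8 on the control arrays and at 2160, 3038 and 213.4 on the overexpressor arrays. Again overexpressor replicate 3 was below empty vector replicate 3. Its log2 change of 2.73 ± 1.09 (SE over n = 3 arrays per line) did not pass over all probe sets (limma adjusted p = 0.465). This probe set is of a type that can match more than 1 transcript.

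LEA19 followed RAB21 from array to array. Its intensity was 38.3, 2.19 and 179.4 on the control arrays and 2829, 4834 and 143.3 on the overexpressor arrays. Only replicate 3 of the control was above background, and it was higher than overexpressor replicate 3. The log2 change of 4.49 ± 1.37 (SE over n = 3 arrays per line; limma adjusted p = 0.197) did not pass, and 7 genes had a larger one. It was 3.66 with values under background set to background. LEA19 has 1 probe set, also of the type that can match more than 1 transcript.

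RAB16B, the dehydrin gene next to RAB21 on chromosome 11, showed the same order at a lower signal. It was at 17.9, 23.4 and 118.1 on the control arrays and at 566.4, 717.3 and 56.7 on the overexpressor arrays. Overexpressor replicate 3 was just above its background of 51.6. On the control side only replicate 3 was above background. The log2 change of 2.48 ± 0.95 (SE over n = 3 arrays per line; limma adjusted p = 0.301) did not pass. It was 1.80 with values under background set to background.

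RAB16C did not share this order. RAB16D had it within each line, but only in values below background. RAB16C was at 574.5, 138.8 and 278.4 on the control arrays and at 480.4, 567.6 and 464 on the overexpressor arrays, all above background. The overexpressor arrays lay close together, inside the range that the control arrays spanned. Its log2 change was 0.79 ± 0.47 (SE over n = 3 arrays per line; limma adjusted p = 0.524), and it was 0.31 without empty vector replicate 2 and 1.28 without empty vector replicate 1. RAB16D was above background on no array, at 2.93 to 22.2, and no fold is given for it.

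Over the 6 members, 0 passed by limma, where 0.519 percent of all genes passed, 93 in number. At an unadjusted p under 0.05, 4 of 6 were higher in the overexpressor, against 8.49 percent of all genes. All 6 fitted changes were above 0, as were 50.7 percent of all genes, and 3 of the 6 were at least 2 on the log2 scale, against 1.12 percent. Of these 3, RAB16B was at 1.80 with values under background set to background. The median change of the members was 2.08, and that of all genes was 0.01. With the replicate block 0 members passed as well, while 234 genes in all passed (1.31 percent).

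**Figure D2:**
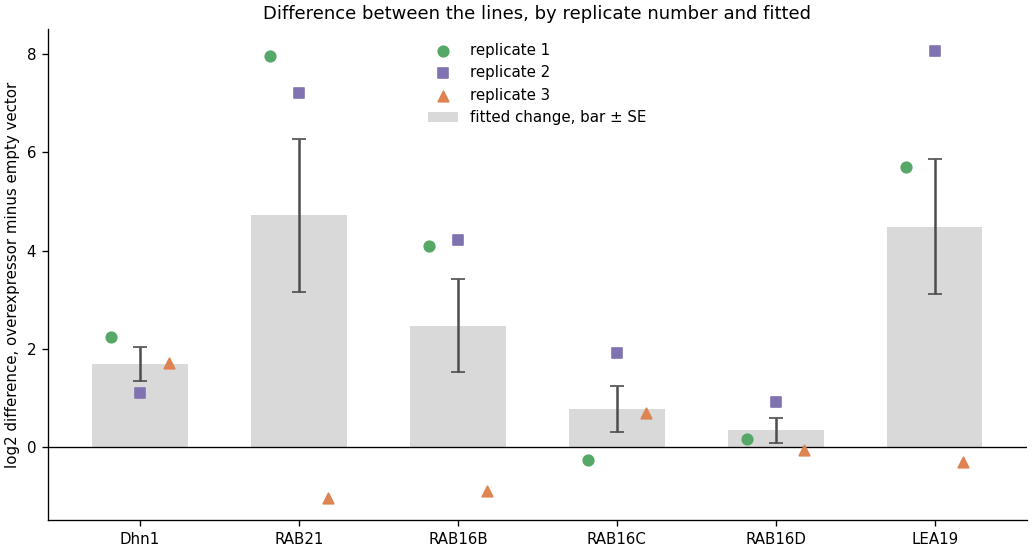
Log2 difference, overexpressor minus empty vector, for each member within replicate numbers 1, 2 and 3 (symbols), over the fitted change with its SE (bars and whiskers). RAB21, RAB16B and LEA19 lie far above 0 in replicates 1 and 2 and below 0 in replicate 3.

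RAB21, LEA19 and RAB16B differed widely among the overexpressor arrays. Within replicate numbers 1, 2 and 3, the log2 differences of RAB21 were 7.97, 7.22 and -1.03. Those of LEA19 were 5.71, 8.06 and -0.29, and those of RAB16B were 4.10, 4.22 and -0.88. These 3 genes were over 4-fold lower on overexpressor replicate 3 than on both other overexpressor arrays, a pattern of 1.49 percent of all genes. The same 3 were over 4-fold higher on empty vector replicate 3 than on both other control arrays, a pattern of 0.514 percent of all genes. Both of those other control arrays were below their backgrounds of 70.9 and 47.5 for all 3 genes. The size of this pattern, and of the differences within replicate numbers 1 and 2, therefore rests on values below background. Overexpressor replicate 3 was the lowest array of its line for 6 of 6 members, and for 30.8 percent of all genes. Among the 6, RAB16C was only slightly lower there, at 464 against 480.4 on replicate 1, and RAB16D was below background. A member was higher in the overexpressor in replicates 1 and 2 and lower in replicate 3 in 4 of 6 cases, RAB16D below background among them, against 6.88 percent of all genes. Across the overexpressor arrays the log2 spread, highest minus lowest, was 4.93 for LEA19 and 3.33 for RAB16B, above their fitted changes, and 4.19 for RAB21, below its fitted change, against a median spread of 0.63 over all genes. It was 0.54 for Dhn1 and 0.28 for RAB16C.

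The fitted changes moved with the arrays kept. Without replicate 3 of both lines, the change of RAB21 was 7.60 (limma adjusted p = 0.217), that of LEA19 was 6.88 (0.234) and that of RAB16B was 4.16 (0.295), and 1 gene of the whole table (0.00559 percent) passed. Without replicate 2 of both lines they were 3.47, 2.71 and 1.61, with adjusted p = 0.41, 0.364 and 0.501. Over their alternative settings the adjusted p ran from 0.189 to 0.467 for RAB21, from 0.137 to 0.428 for LEA19 and from 0.187 to 0.557 for RAB16B. Overexpressor replicate 3 correlated with overexpressor replicate 1 at 0.9801 over all rice probe sets, the highest of the 15 pairs of arrays. A difference confined to few genes would not show in that value. The array also had the lowest leaf marker sum, 64954, and the part of either in the replicate 3 values was not tested. On overexpressor replicate 3 the mean 3 prime to 5 prime signal ratio over 3 rice control transcripts, which rises as RNA degrades, was, in log2, 1.58. It was 1.39 and 1.67 on the other overexpressor arrays. On empty vector replicates 1 and 3 it was 1.25 and 1.28, below all overexpressor arrays. Without replicate 2 of both lines the ratio thus separated the lines, and its part in the changes of that setting was not tested. The control array with the highest Dhn1, replicate 2, also had the highest ratio of all arrays, 2.37, and its part in the Dhn1 values was not tested.

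The 4 RAB16 genes stand beside one another on chromosome 11, in the order RAB16D, RAB16C, RAB16B and RAB21, per the gene table of assembly ASM3414082v1. A non-coding RNA gene and a pseudogene lie between RAB16C and RAB16B, and neither was measured. The strong array-to-array pattern was seen in RAB16B and RAB21, which are neighbours, and not in RAB16C, while RAB16D gave no level above background. LOC4350455, the first measured gene beyond RAB21, was at 11043 to 17482 in the control and 10089 to 13429 in the overexpressor, with a fitted change of -0.26 ± 0.25 (SE over n = 3 arrays per line; limma adjusted p = 0.718). LOC4350450, a non-coding RNA gene and the first measured gene beyond RAB16D, was at 242.5 to 500.9 and 306.8 to 316.4, with a fitted change of -0.09 ± 0.31 (adjusted p = 0.94). Of the 6 measured flanking genes, 3 on each side, 0 passed by limma, and 1 (LOC4350442, above background on no array) was under an unadjusted p of 0.05. Closely related copies can share signal, and how much each RAB16 probe set picks up from the other copies was not tested.

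**Figure D3:**
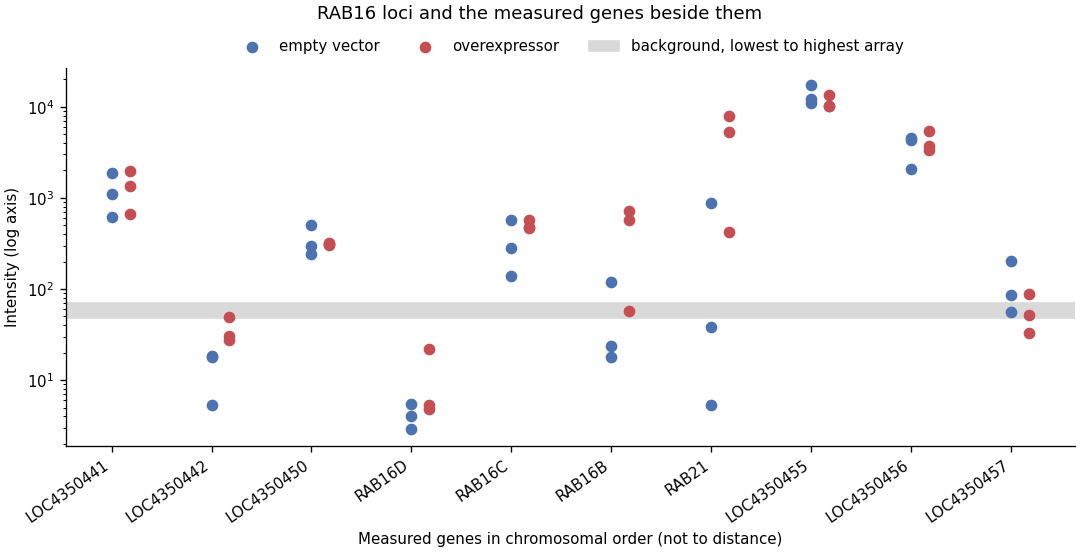
Intensity (log axis) of the measured genes around the RAB16 loci, in chromosomal order and not drawn to distance, with control arrays in blue, overexpressor arrays in red and the range of background in grey. RAB16B and RAB21 spread widely within each line, and the flanking genes do not separate the lines above background; levels of different probe sets are not comparable.

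The arrays of RAB21 were set against those of every other gene by the root mean square difference of log2 values, each centred on its mean over the 6 arrays. LEA19 was the nearest of 14248 genes above background, at 1.12, and RAB16B was the next, at 1.53, where RAB21 itself departed from its own mean by 3.15. LEA19 in turn had RAB21 as its nearest gene and RAB16B as its next, at 1.25. Dhn1 was at 2.59 from RAB21, which placed it at rank 272 of the 14248, and RAB16C was at 2.97, at rank 2215.

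Outside the members, the nearest named genes were less close to RAB21 and LEA19 than these were to each other. For RAB21 they were BGLU18, named as a beta-glucosidase, at 1.96, CAD6, a cinnamyl alcohol dehydrogenase, at 2.12, and LIS at 2.14. BGLU18 was at 68.6, 107.7 and 875.9 on the control arrays and at 492.6, 1353 and 638.8 on the overexpressor arrays, so it too was high on empty vector replicate 3. For LEA19 they were CAD6 at 1.74, the metallothionein gene MT1B at 1.75 and the chalcone synthase gene CHS, the entry to flavonoids, at 1.78. For Dhn1 they were the SPL-family transcription factor gene SPL2 at 0.25, the lipid transfer protein gene LTP2-B at 0.31 and the anthranilate synthase gene ASB2 at 0.32. SPL2 was at 180.5, 273.6 and 155.9 on the control arrays and at 527.8, 723.8 and 505.4 on the overexpressor arrays, without overlap. Unlike RAB21 and LEA19, the genes CAD6, LIS, MT1B and CHS were higher in the overexpressor without overlap and within all 3 replicate numbers. Of the nearest genes named here, CAD6 (limma adjusted p = 0.017) and ASB2 (0.0406) passed. These distances describe 6 arrays and carry no test.

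Among other LEA genes, rab25 and EM were measured. The gene rab25 was at 32.2, 148.7 and 42.5 on the control arrays and at 156.9, 1045 and 112.1 on the overexpressor arrays, and was highest on overexpressor replicate 2. On the control side only replicate 2 was above background, while all overexpressor arrays were. The log2 change of rab25 was 1.89 ± 0.86 (SE over n = 3 arrays per line; limma adjusted p = 0.386) and did not pass. It was 0.94 without overexpressor replicate 2 and 1.48 with values under background set to background. EM, a LEA gene known from cereal embryos, was above background on 1 overexpressor array and no control array, and had a log2 change of 0.27 ± 0.45 (adjusted p = 0.853; 0.04 to 0.62 with single arrays removed).

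Abscisic acid reaches dehydrin genes through receptors that bind PP2C phosphatases and so release SnRK2 kinases (SAPK genes in rice), which switch on bZIP transcription factors. The list of 67 receptor, phosphatase and kinase genes was drawn by name and is wider than this route. It mostly holds PP2C genes of any number, with OsPYL11 as its receptor gene and the SAPK genes. Which of its PP2C genes act in this route, OsPP2C29 and BIPP2C2 among them, was not tested. Of the 67 genes 0 passed by limma, and 10 were under an unadjusted p of 0.05, where 14.2 percent of all genes were. The median change of these 67 was 0.12, with 44 above 0. The phosphatase gene OsPP2C29 was at 465.7, 496.9 and 529 on the control arrays and at 1982, 1167 and 1887 on the overexpressor arrays. Its lines did not overlap, and its log2 change of 1.69 ± 0.26 (SE over n = 3 arrays per line) missed the threshold (limma adjusted p = 0.051) and passed with the replicate block (adjusted p = 0.0461; 0.0165 to 0.569 over the alternatives). BIPP2C2, another phosphatase gene, was at 740.5 to 866.9 in the control and 1370 to 1663 in the overexpressor, with a fitted change of 0.88 ± 0.20 (adjusted p = 0.102).

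Of 8 transcription factor genes of the abscisic acid response 0 passed by limma and 0 were under an unadjusted p of 0.05, with a median change of 0.00. The NAC factor gene NAC6 was at 5970, 6172 and 8535 on the control arrays and at 8482, 10144 and 8964 on the overexpressor arrays (adjusted p = 0.445). The homeobox gene Hox22 was at 695.1, 1391 and 923.2 on the control arrays and at 1927, 4430 and 592.4 on the overexpressor arrays. Like RAB21 it was lowest of the overexpressor arrays on replicate 3, where it lay under all control arrays, and its change of 0.83 ± 0.68 (SE over n = 3 arrays per line) did not pass (adjusted p = 0.662). It was 0.15 without overexpressor replicate 2 and 1.59 without overexpressor replicate 3.

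**Figure D4:**
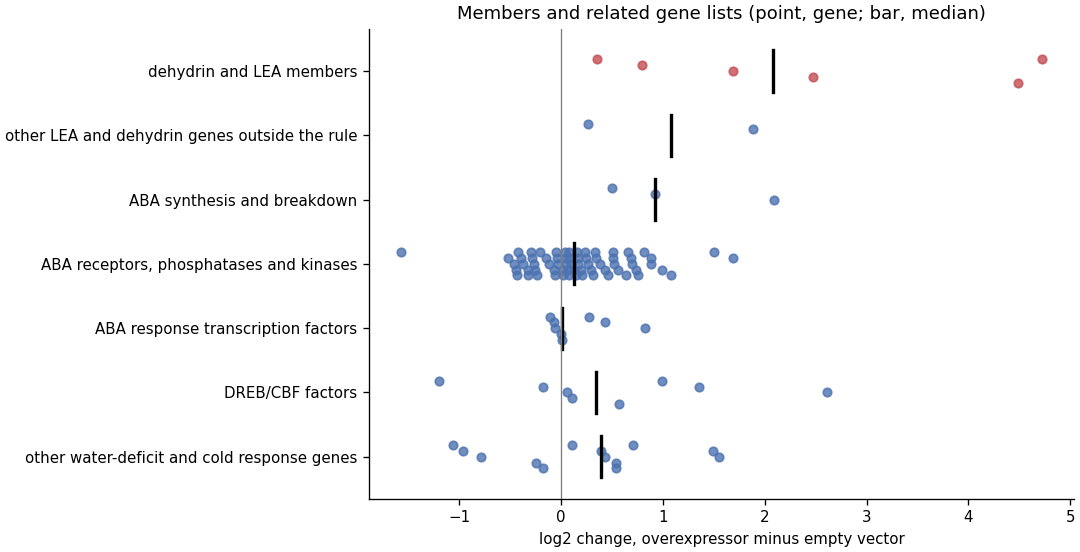
Log2 change, overexpressor minus empty vector, of the 6 members (red) and of the genes of 6 related lists (blue), with a bar for each median. The members have a median of 2.08, and the 67 receptor, phosphatase and kinase genes, mostly PP2C genes taken by name, centre on 0.12.

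Genes of abscisic acid turnover and of the cold and drought factors (DREB/CBF) included some that were highest on overexpressor replicate 3, the array on which RAB21 was low. ABA1 was instead highest on overexpressor replicate 2. The share of all genes highest on replicate 3 was not taken, and a link of these genes to RAB21 was not tested. ABA8OX1, for an enzyme that breaks down abscisic acid, was at 68.9, 1050 and 84.3 on the control arrays and at 191.6, 848.2 and 3862 on the overexpressor arrays. Its log2 change of 2.09 ± 1.27 (SE over n = 3 arrays per line; limma adjusted p = 0.538) did not pass. It ran from 1.02 without overexpressor replicate 3 to 3.26 without empty vector replicate 2, and was 3.13 without overexpressor replicate 1 and 0.49 without replicate 3 of both lines. DREB1G, a DREB/CBF factor gene, was at 19.8, 83 and 16.9 on the control arrays and at 35.6, 370.5 and 1319 on the overexpressor arrays. It was above background on 1 control and 2 overexpressor arrays, and its change of 2.61 ± 1.12 (adjusted p = 0.354) did not pass and was 1.53 without overexpressor replicate 3. DREB1E was above background only on overexpressor replicate 3, at 146.9 (fitted change 0.99, adjusted p = 0.574), and its change was 0.32 without that array and 1.58 without overexpressor replicate 1.

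**Figure D5:**
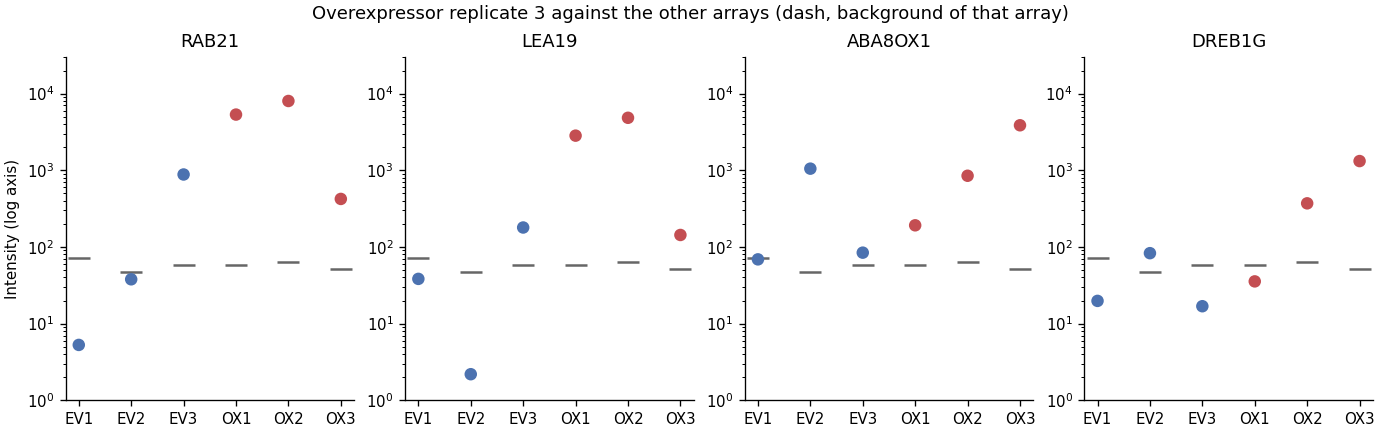
Intensity (log axis) of RAB21, LEA19, ABA8OX1 and DREB1G on each array, with control arrays (EV) in blue, overexpressor arrays (OX) in red and a dash for each array's background. On overexpressor replicate 3, RAB21 and LEA19 are at their lowest of that line, and ABA8OX1 and DREB1G are at their highest.

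Of the 3 genes of abscisic acid synthesis and breakdown 0 passed by limma and 0 were under an unadjusted p of 0.05, with a median change of 0.92. ABA1, for zeaxanthin epoxidase on the route to abscisic acid, was at 3175, 7923 and 2630 on the control arrays and at 4272, 13306 and 7884 on the overexpressor arrays. It was highest on replicate 2 in each line (fitted change 0.92 ± 0.53, SE, with n = 3; adjusted p = 0.511). The change was 0.52 without overexpressor replicate 2, 0.61 without empty vector replicate 3 and 1.40 without empty vector replicate 2. Of the 8 DREB/CBF genes 0 passed and 0 were under an unadjusted p of 0.05, with a median change of 0.34.

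Of 13 other water-deficit and cold response genes 0 passed by limma, 5 were under an unadjusted p of 0.05, where 14.2 percent of all genes were, and the median change was 0.39. The proline synthesis gene P5CS1 was at 2733, 3811 and 4748 on the control arrays and at 1893, 2161 and 1613 on the overexpressor arrays, lower without overlap. Its log2 change was -0.96 ± 0.26 (SE over n = 3 arrays per line; limma adjusted p = 0.155). How many of all genes were lower without overlap was not taken. BURP3, of the BURP-domain family that holds the drought gene RD22 of Arabidopsis, was at 172.9, 238.2 and 417.7 on the control arrays and at 566.4, 1226 and 627.8 on the overexpressor arrays. It was higher without overlap, with a change of 1.49 ± 0.42 (adjusted p = 0.168).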

How the data were processed

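The deposited values were probe set intensities on a linear scale, as the authors deposited them in the series matrix. Their trimmed means (2 percent removed at each end) were equal, so each array had been scaled. Per the labels' protocols, 10 ug of total RNA gave the biotinylated cRNA; how probes were summarized is not stated there. At most 0.00349 percent of values were identical between any 2 arrays. The number of arrays sets the precision.

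Of 57381 probe sets, 187 controls were left out, and 22436 of the other 57194 were paired with 1 gene, 95 with several and 34663 with none. Names came from GEO's platform annotation and, through gene identifiers, from the gene table of assembly ASM3414082v1.

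The difference, overexpressor minus empty vector, was fitted to log2(intensity + 16) with limma 3.58.1 in R 4.3.3 (lmFit, eBayes with variance trend, 2-sided) on all rice probe sets, and Benjamini-Hochberg adjustment ran over 17905 genes, with 1 probe set each and a threshold of 0.05. An exact permutation test of 3 against 3 cannot go under p = 0.1 and was not used. The fit was tested on simulated data.

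Deviations from each line's mean over 14249 genes correlated at 0.369, 0.431 and 0.28 for replicate numbers 1, 2 and 3 of the titles. For unlike numbers they correlated at -0.459 to 0.316, the highest for empty vector replicate 3 with overexpressor replicate 1. A fit that takes the number as a block was added. Named genes are all members, the genes of each related list that passed or else the 2 with the smallest p, and the 3 nearest named genes to Dhn1, RAB21 and LEA19. Genes whose names matched a list by chance were taken out by name. Members and lists were chosen with earlier results of these data known.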

Additional observations from a re-analysis of the deposited data

How the results depend on the processing

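The 6 members kept their direction under all settings that measured them: 20 for Dhn1, RAB21, RAB16B and RAB16C, 19 for LEA19 and 18 for RAB16D. The median change of the members, 2.08, ran from 1.69 to 2.92, and from 1.74 to 2.70 with single arrays removed. The number of members that passed, 0, became 1 (Dhn1) with array weights and without replicate 2 of both lines, and stayed at 0 with single arrays removed. Over all genes, the 93 calls became 234 with the replicate block, 404 with array weights, 169 after median centring, 239 without replicate 2 of both lines and 1 without replicate 3 of both lines. It was 4 to 35 with single arrays removed. Of the 101 genes in related lists 0 passed, and 1 passed (OsPP2C29) with the replicate block, with a pseudocount of 1, with array weights, after median centring and without replicate 2 of both lines; with single arrays removed it was 0 to 1. The cause of these moves was not tested. The replicate block changed no other call of a member or named list gene. Removal of replicate 3 of both lines, and setting low values to background, were chosen after the data were seen. Signal near background limits RAB16D, EM, DREB1E and the control arrays of RAB21, RAB16B, LEA19, rab25 and DREB1G.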
